A study of Mus musculus with 4 samples.

Results

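The genes of 5 mouse E-box-binding transcription factors were examined for phosphorylated STAT3 (pSTAT3) binding: the E-protein genes Tcf3, Tcf4 and Tcf12 and the ZEB genes Zeb1 and Zeb2. They were chosen by name, and their binding regions are those that the deposited table of reproducible regions pairs with one of these names. By this rule 4 of the 5 genes had regions, 21 in all of the 12925 in the table, and Tcf3 had none. The cells were oligodendrocyte progenitors in primary culture from C57BL/6 cortex, which divide and later form myelinating oligodendrocytes. Their medium held PDGF-AA at 10 ng/ml with bFGF at 20 ng/ml, and all were given CNTF at 100 ng/ml for 15 min, a cytokine that activates STAT3 through JAK kinases. Chromatin was precipitated with an antibody to tyrosine-phosphorylated STAT3 in 2 ChIP libraries. The 2 input libraries were not analysed here, and no untreated cells were among the samples, so the values describe binding in treated cells and not a response to CNTF. The protocol pooled lysed cells, and no label says that the ChIP libraries came from separate cultures. The spread between the libraries can therefore be technical. Binding does not measure expression, so the labelled cell type could not be checked against marker genes.

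E-proteins are basic helix-loop-helix (bHLH) factors. They pair with lineage factors such as OLIG2 and bind E-boxes, short DNA sites of the form CANNTG, and ID proteins block them by forming pairs that cannot bind DNA. ZEB proteins are zinc finger factors that bind E-boxes of the type CACCTG, mostly as repressors, and recruit the corepressor CtBP. In mice ZEB2 promotes myelination, and TCF4 is a partner of OLIG2 in oligodendrocyte differentiation.

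In each library the authors' peak caller gave a pileup, the number of fragments stacked at a peak's summit, and a fold enrichment over the background around the peak. The listed folds are (pileup + 1) / (background + 1), not the plain ratio. Replicate 1 held 42131 peaks with a median pileup of 30, and replicate 2 held 26537 with a median of 20. The lowest background was 4.72 fragments in replicate 1 and 2.91 in replicate 2, and serves here as the guide to depth. A region was in the table where its irreproducible discovery rate (IDR), an estimate of the chance that it does not repeat between libraries, was at most 0.05. A region's fold in a library is that of the strongest peak it overlaps there, and its strength is the lower of both folds. All positions are 1-based on GRCm38.

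Of the 21 regions, 17 lay inside a listed transcript of their gene, 1 upstream and 3 downstream. A region midpoint lay within 5 kb of a listed transcription start for 3 of the 5 genes (Tcf4, Tcf12 and Zeb2), where 18.1% of 21887 protein-coding genes had one. Within 1 kb of a start the count was 2 of 5 (Tcf4 and Zeb2), against 12.8% of all genes. Within 25 kb of a transcript it was 4 of 5, against 40.8% of all genes. These genes list many starts (13 for Tcf4, 20 for Tcf12, 10 for Zeb1 and 13 for Zeb2), and each start adds a window in which a region can fall. In the single libraries all 5 genes had a peak summit within 5 kb of a start, against 45.5% of 17492 genes in replicate 1 and 30.7% in replicate 2. These shares count RefSeq starts, while Tcf4, Tcf12, Zeb1 and Zeb2 were counted by their listed Ensembl starts, so the count and the shares are not on the same basis. Tcf3 and Zeb1 were thus near a peak in each library without a reproducible region near a start.

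Tcf4 encodes the E-protein also called E2-2, and it carried 12 of the 21 regions, all inside the gene. It lies on the plus strand of chromosome 18, with listed transcripts over 69344146 to 69687967, and the regions spanned 305 kb of it. By midpoints inside the RefSeq gene body, 8 of 21887 protein-coding genes held more regions than Tcf4 and 11 held as many or more, itself included. The gene is long, at 345 kb. Per 100 kb it held 3.48 regions, against 0.688 over all protein-coding gene bodies merged. The same density was 2.24 for Zeb2, 0.543 for Zeb1, 0.374 for Tcf12 and 0 for Tcf3. It was thus above 0.688 for Tcf4 and Zeb2 only.

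The strongest Tcf4 region covered the outermost listed start, at 69343916 to 69344711, and its midpoint lay inside 1 of 14 listed transcripts. The pileup there was 176 fragments in replicate 1 (exact Poisson 95% interval 151 to 204, counting error only) and 103 in replicate 2 (84.1 to 125). It was enriched 30.6-fold in replicate 1 and 26.3-fold in replicate 2, a mean of 28.4 ± 3.01 (SD, n = 2). Both summits lay downstream of the outermost start, by 226 bp in replicate 1 and 221 bp in replicate 2, and upstream of the next listed start, by 120 bp in replicate 1 and 125 bp in replicate 2. This region was stronger than 96.5% of all reproducible regions and ranked 448, the highest place of any of the 21. Starts inside the gene give shorter TCF4 isoforms, and regions covered 2 of these as well. The region at 69563227 to 69563716 reached 7.70-fold in replicate 1 and 7.68-fold in replicate 2. The broader region at 69592467 to 69593731, 1265 bp wide, reached 17.3-fold in replicate 1 and 11.5-fold in replicate 2.

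The other Tcf4 regions covered no listed start, and their distances to the nearest start differed widely. The region at 69415455 to 69415974 was 69.5 kb from the nearest start and reached 17.3-fold in replicate 1 and 12.1-fold in replicate 2. The region at 69536721 to 69537169 was 15.2 kb from one and reached 19.4-fold in replicate 1 and 12.2-fold in replicate 2. Between them lay regions at 69515065, 69517310 and 69528037, of 9.81-fold to 14.3-fold over both libraries. In that order they were 6.29 kb, 4.05 kb and 6.46 kb from the nearest start. The regions at 69347247, 69591654 and 69648609 were weaker, with 6.95-fold to 9.80-fold in replicate 1 and 4.68-fold to 5.89-fold in replicate 2. Their distances from the nearest start were 1.17 kb, 1.54 kb and 30.9 kb in that order. The weakest, at 69400727 to 69401041, reached 3.50-fold in replicate 1 and 3.33-fold in replicate 2, with an IDR of 0.0429. It was weaker than all but 0.928% of regions, and 10 of the 12 Tcf4 regions had an IDR of 0.01 or less. Apart from Tcf4, the table pairs 3 of these regions with Gm24845, and the nearest other protein-coding gene, Ccdc68, was 276 kb away or more.

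**Figure D1:**
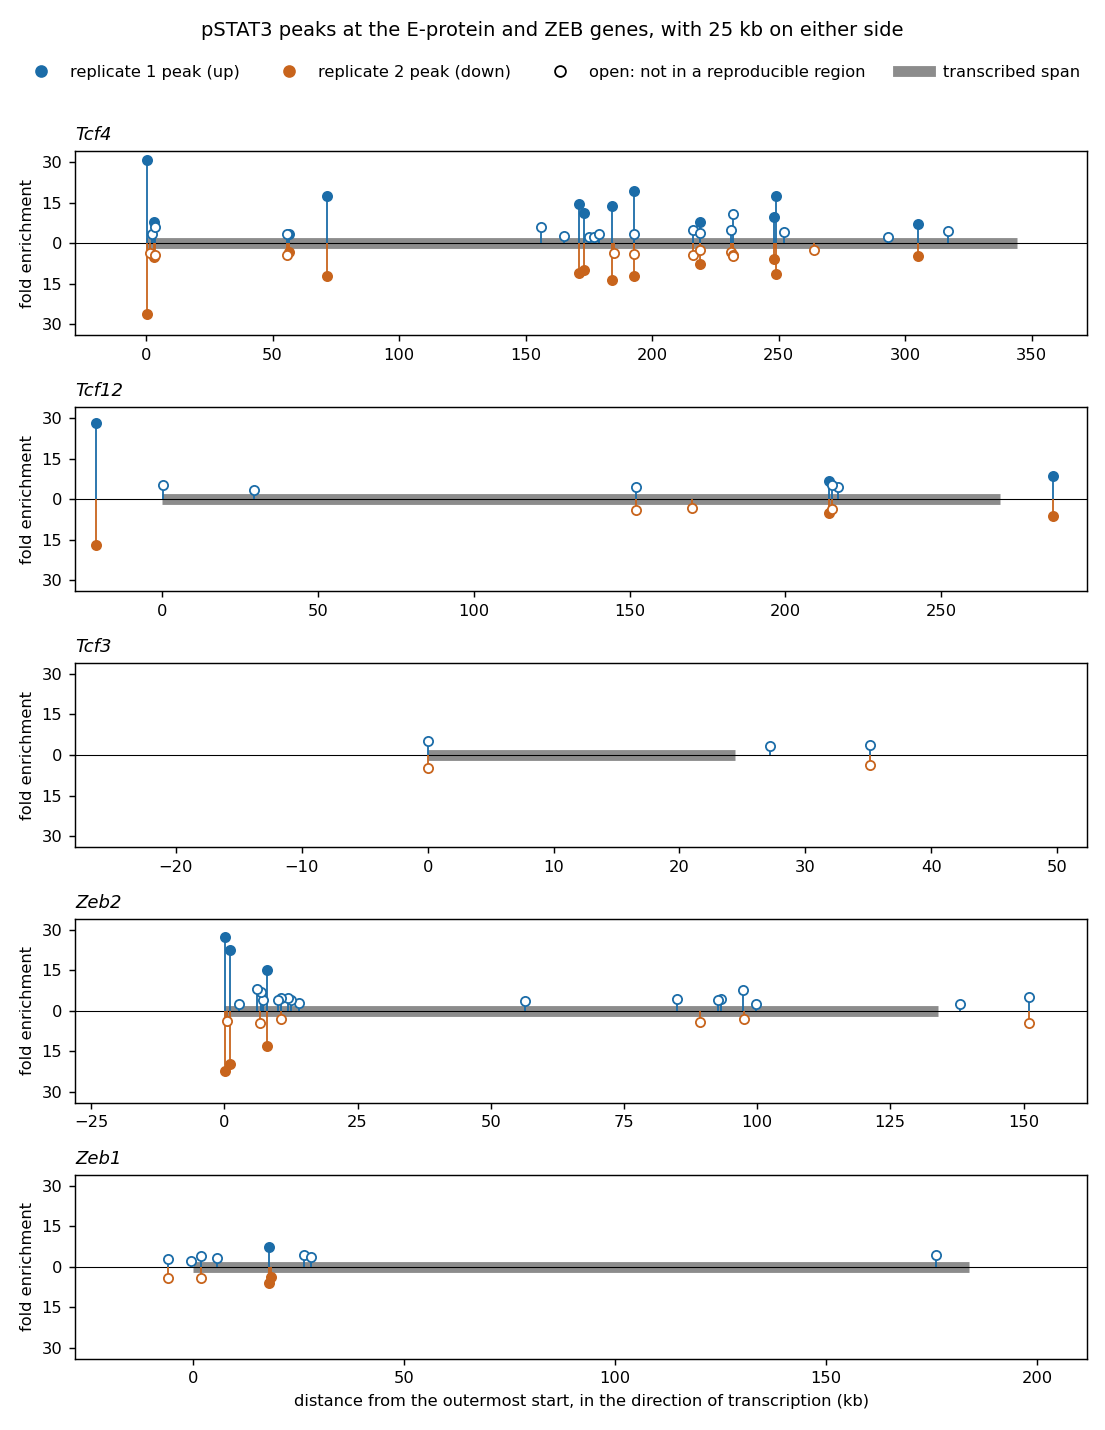
Fold enrichment of every peak in replicate 1 (upward) and replicate 2 (downward) against distance in kb from the outermost start, for each gene with 25 kb on either side. Open circles are peaks outside reproducible regions, and grey bars are transcribed spans. Tcf4 carries 12 regions along its body, and Zeb2 has 3 with midpoints up to 8.3 kb from its outer start. Tcf3 has open circles only, and both downstream Zeb1 regions lie beyond the plotted range.

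Tcf12 encodes the E-protein HEB, and its strongest region lay outside the gene. Tcf12 is on the minus strand of chromosome 9, with listed transcripts over 71842688 to 72111871. The region at 72132640 to 72133517 was 21.2 kb upstream of the outermost start. Its pileup was 165 fragments in replicate 1 (interval 141 to 192) and 66 in replicate 2 (51 to 84). It was enriched 28.1-fold in replicate 1 and 17.0-fold in replicate 2 (mean 22.5 ± 7.91, SD, n = 2), the widest difference in fold between libraries among the 21 regions. It was stronger than 88.5% of all regions. The table also pairs it with Gm7863, whose start was 4.49 kb away, and with Gm25045.

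The other 2 Tcf12 regions were weaker. One, at 71897457 to 71897727, lay inside 14 of 21 listed transcripts and 1196 bp upstream of an internal start, with 6.58-fold in replicate 1 and 5.05-fold in replicate 2. The other, at 71825938 to 71826466, lay 16.5 kb past the end of the gene, with 8.70-fold in replicate 1 and 6.19-fold in replicate 2. It was nearer to Gm27220, at 1.33 kb, and about as near to the protein-coding gene Cgnl1, at 16.9 kb. The outer Tcf12 promoter had no reproducible region. Replicate 1 had a peak there of 5.07-fold (pileup 28), and replicate 2 had no overlapping peak. At an internal Tcf12 start, peaks of both libraries overlapped outside the reproducible regions. Their summits were 134 bp (replicate 1, 5.15-fold) and 126 bp (replicate 2, 3.75-fold) upstream of that start.

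Tcf3 encodes the E-protein isoforms E12 and E47 and had no row in the region table. It is on the minus strand of chromosome 10, at 80409541 to 80433976 in the RefSeq gene table. Peaks of both libraries nevertheless overlapped at its start. Replicate 1 had a pileup of 37 (interval 26.1 to 51) and 5.05-fold enrichment, and replicate 2 had a pileup of 21 (13 to 32.1) and 4.95-fold. Summits were 301 bp (replicate 1) and 290 bp (replicate 2) upstream of the RefSeq promoter start. Both lay inside the RefSeq gene, 40 bp (replicate 1) and 51 bp (replicate 2) from its outer end. The caller's evidence, as the mean over libraries of the -log10 p against local background, was 13.6, and 304 regions that are in the table had a lower mean. A second overlapping pair lay 34.8 kb from the start, past the gene's far end, at 3.85-fold in replicate 1 and 3.84-fold in replicate 2.

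Zeb2 carried 3 regions, which lay within a stretch of 8.89 kb that includes its outer start. Its protein is also known as SIP1, for SMAD-interacting protein. Zeb2 is on the minus strand of chromosome 2, with listed transcripts over 44983634 to 45117395. The region over the outermost start, at 45117142 to 45117587, had a pileup of 155 fragments in replicate 1 (interval 132 to 181) and 86 in replicate 2 (68.8 to 106). It was enriched 27.3-fold in replicate 1 and 22.3-fold in replicate 2 (mean 24.8 ± 3.55, SD, n = 2), stronger than 94.2% of all regions. The next region, at 45115687 to 45116480 and 1312 bp downstream of that start, reached 22.4-fold in replicate 1 and 19.5-fold in replicate 2 (mean 20.9 ± 2.08). The innermost, at 45108697 to 45109486, reached 15.0-fold in replicate 1 and 13.1-fold in replicate 2 (mean 14.1 ± 1.41). Its midpoint was 8.3 kb from the outermost start and 1153 bp downstream of an internal start. That midpoint lay inside 13 of 14 listed transcripts, against 1 of 14 for each of the other Zeb2 regions. Even the innermost was stronger than 80.1% of all regions, and in each of the 3 the library values lay closer together than those of the upstream Tcf12 region. Zeb2os, the antisense transcript on the opposite strand, starts 2.05 kb to 5.10 kb from these midpoints. ChIP has no strand, so its binding cannot be told apart from that of Zeb2.

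Promoter sequences are shown for 3 of the genes, to set the letters beside the peaks. They are RefSeq windows (GRCm38.p6) of 250 bases before and 50 bases from a start, written 5′ to 3′ on the minus strand, on which all 3 genes lie. Capitals mark matches on either strand to TTCNNNGAA, the form of a STAT site, or to CANNTG, the E-box, which also contains CACCTG.
Zeb2 outer start, chr2:45117393-45117692: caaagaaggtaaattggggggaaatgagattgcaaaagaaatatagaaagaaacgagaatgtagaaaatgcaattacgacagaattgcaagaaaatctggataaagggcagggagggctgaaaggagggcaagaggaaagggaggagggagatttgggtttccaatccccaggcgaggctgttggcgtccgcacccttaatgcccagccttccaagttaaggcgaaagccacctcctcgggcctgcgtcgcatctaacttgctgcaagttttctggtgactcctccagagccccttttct
Zeb2 internal start, chr2:45113230-45113529: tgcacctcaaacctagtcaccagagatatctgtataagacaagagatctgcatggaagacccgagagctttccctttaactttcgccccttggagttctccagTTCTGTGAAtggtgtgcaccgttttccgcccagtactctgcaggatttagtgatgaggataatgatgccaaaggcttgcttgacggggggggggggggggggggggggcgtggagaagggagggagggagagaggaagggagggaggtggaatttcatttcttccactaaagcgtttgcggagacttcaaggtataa
Tcf12 outer start, chr9:72111770-72112069: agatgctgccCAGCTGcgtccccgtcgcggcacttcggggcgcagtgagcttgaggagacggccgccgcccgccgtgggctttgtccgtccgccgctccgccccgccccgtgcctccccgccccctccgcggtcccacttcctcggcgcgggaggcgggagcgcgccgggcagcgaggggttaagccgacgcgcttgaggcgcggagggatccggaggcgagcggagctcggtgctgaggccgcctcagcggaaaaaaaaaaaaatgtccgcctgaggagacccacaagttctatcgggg
Tcf3 start, chr10:80433586-80433885: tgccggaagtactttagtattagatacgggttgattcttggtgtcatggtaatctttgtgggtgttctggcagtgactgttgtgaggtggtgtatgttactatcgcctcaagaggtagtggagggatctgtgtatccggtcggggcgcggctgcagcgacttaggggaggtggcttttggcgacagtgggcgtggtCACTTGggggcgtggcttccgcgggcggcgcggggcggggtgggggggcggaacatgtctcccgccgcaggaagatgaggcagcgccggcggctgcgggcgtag
The outer Zeb2 window overlapped the strongest Zeb2 region by 195 bp and held none of these motifs, although both summits lay outside it. A STAT-type match, TTCTGTGAA, began 147 bases before an internal Zeb2 start where neither library had a peak. The outer Tcf12 window lay wholly under the replicate 1 peak and held 1 E-box, CAGCTG, which began 240 bases before the start. The Tcf3 window overlapped the replicate 1 peak by 159 bp and the replicate 2 peak by 111 bp, and held 1 E-box, CACTTG, which began 54 bases before the start. None of the 8 windows found for the 3 genes held CACCTG. Among 32817 promoter windows of the same length, 8.29% held TTCNNNGAA, 72.3% held CANNTG and 20.2% held CACCTG, and among the 2484 that overlapped a region the shares were 15%, 62.4% and 13.5%. A match here is a description of letters and not a shown binding site.

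Zeb1 encodes the other ZEB repressor, and by its strongest region it ranked lowest of the 4 genes with regions. It is on the plus strand of chromosome 18, with listed transcripts over 5591860 to 5775467 and 3 regions, of which 1 lay inside the gene. That region, at 5609667 to 5610517, reached 7.26-fold in replicate 1 and 5.87-fold in replicate 2 (mean 6.56 ± 0.981, SD, n = 2), with an IDR of 0.0275. The strongest lay 43.7 kb past the end of the gene, at 5818844 to 5819449, with 16.8-fold in replicate 1 and 11.8-fold in replicate 2 (mean 14.3 ± 3.55), stronger than 76.3% of all regions. The remaining region, 30.2 kb past the end, reached 9.32-fold in replicate 1 and 7.04-fold in replicate 2. No reproducible region lay within 5 kb of a Zeb1 start, and the region inside the gene was 6.35 kb from the nearest. Overlapping peaks had summits 53 bp (replicate 1, 4.07-fold) and 36 bp (replicate 2, 3.96-fold) downstream of a start.

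**Figure D2:**
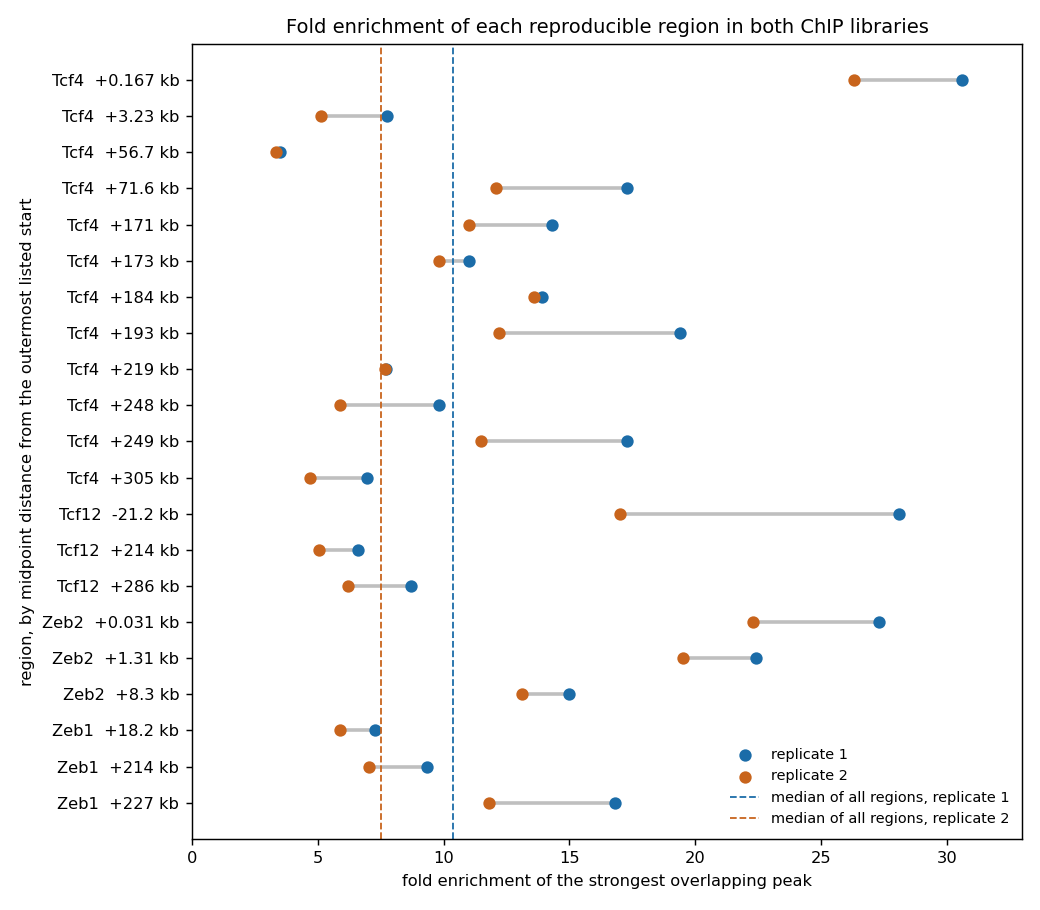
Fold enrichment of the 21 reproducible regions, each by its strongest peak, in replicate 1 (blue) and replicate 2 (orange), labelled by gene and midpoint distance in kb from the outermost start. Dashed lines are the medians of all regions, 10.4 in replicate 1 and 7.51 in replicate 2. Replicate 1 is higher in all 21, and the Tcf4, Zeb2 and Tcf12 regions with the highest values stand to the right.

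Over all 21 regions the median fold enrichment was 13.9 in replicate 1, against 10.4 over the whole table. In replicate 2 it was 11, against 7.51 over the whole table. Of the 21, 13 were above the median strength of all regions, and 3 were at or above its 90th percentile of 17.9-fold: the outer regions of Tcf4 and Zeb2 and the second Zeb2 region. An IDR of 0.01 or less was reached by 18 of the 21 regions (85.7%), against 10250 of all 12925 (79.3%). Replicate 1 had the higher fold in all 21, as in 95.1% of all regions, and the median ratio of replicate 1 to replicate 2 was 1.30 in these and 1.33 in all. Summits of the libraries lay a median of 15 bp apart, against 20 bp in all regions. The extents of all 21 regions equal those of a replicate 1 peak, as in 12867 regions of the table.

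**Figure D3:**
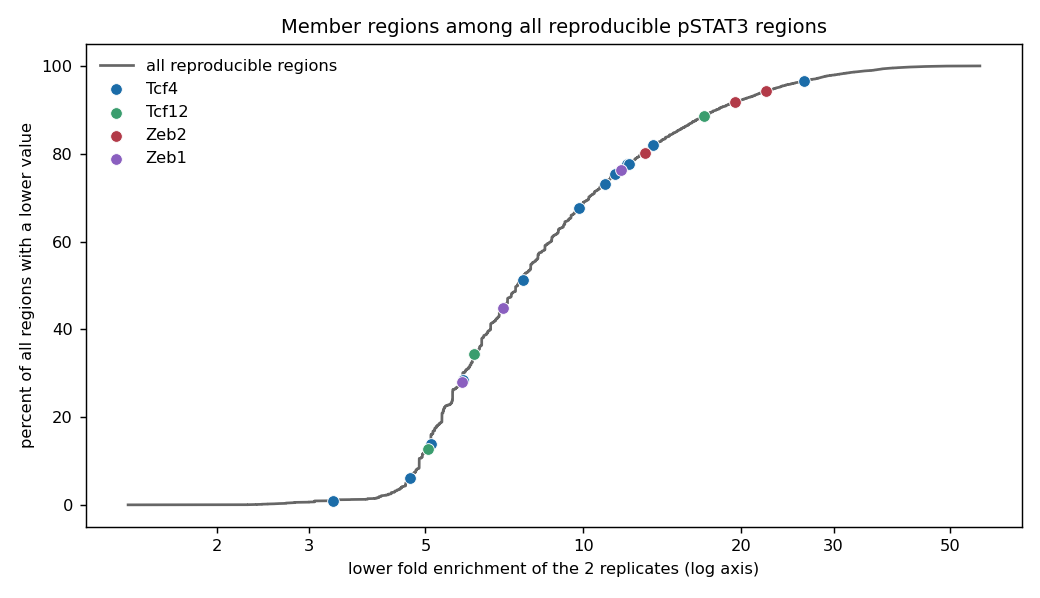
Percent of all reproducible regions with a lower value (vertical axis) against the lower fold enrichment of both replicates (horizontal, log axis). Coloured points are the 21 regions by gene and the grey line is all 12925 regions. The points run from 0.928% for the weakest Tcf4 region to 96.5% for the strongest.

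Outside the reproducible table, 17 peaks of replicate 1 at these genes overlapped a peak of replicate 2. Tcf4 had 7 of them, Zeb2 had 4, and Tcf3, Tcf12 and Zeb1 had 2 each. Their fold enrichments were 3.05 to 10.7 in replicate 1 and 2.64 to 4.95 in replicate 2. The highest was inside Tcf4, with a replicate 1 summit at 69576614, 10.7-fold in replicate 1 and 4.79-fold in replicate 2. Its mean -log10 p was 31.2, and 5832 regions that are in the table had a lower mean. The same replicate 1 peak also overlapped another replicate 2 peak, of 4.35-fold. Of the 17, 8 had a mean above 11.5, the lowest in the table apart from its 145 weakest regions. The Tcf4 region at 69400727, with a mean of 5.89, was among those 145, and the lowest mean of the 17 was 6.24. Peaks with no partner numbered 31 in replicate 1, with a median fold of 3.68, and 6 in replicate 2.

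Genes that work with E-proteins and ZEB factors were counted the same way, over 68 genes in 7 lists. A region midpoint lay within 5 kb of a start in 13 of them (19.1%), which is near the 18.1% of all protein-coding genes. The 68 include 5 microRNA genes, which are not protein-coding and so are not part of that 18.1%. The ID genes stood highest, with 3 of 4. Id2 reached 33.1-fold in replicate 1 and 22.3-fold in replicate 2, with its midpoint 317 bp from a start. Id3 reached 21.3-fold in replicate 1 and 11.2-fold in replicate 2, and Id1 reached 7.70-fold in replicate 1 and 6.66-fold in replicate 2. Of the class II bHLH partners 4 of 28 had a region (14.3%), among them the oligodendrocyte factors Olig1 and Olig2. Olig1 reached 12.2-fold in replicate 1 and 10.9-fold in replicate 2, and Olig2 reached 6.23-fold in replicate 1 and 5.64-fold in replicate 2.

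Among E-protein coregulators 2 of 8 had a region: Lmo4, a LIM-only adaptor (16.1-fold in replicate 1, 9.73-fold in replicate 2), and Runx1t1, an ETO family corepressor (10.5-fold in replicate 1, 8.54-fold in replicate 2). Among ZEB corepressors and SMAD partners it was 3 of 12: Ctbp2 (21.8-fold in replicate 1, 12.8-fold in replicate 2), Smad3 (10.5-fold in replicate 1, 9.98-fold in replicate 2) and Rcor1 (3.32-fold in replicate 1, 3.07-fold in replicate 2). Of the ZEB target genes 1 of 6 had one, Vim, which encodes the intermediate filament vimentin (31.8-fold in replicate 1, 22.6-fold in replicate 2). None of the 5 SNAI and SCRT zinc finger repressor genes and none of the 5 miR-200 family genes, whose microRNAs target ZEB transcripts, had a region within 5 kb. The nearest listed regions of the miR-200 genes were 22 kb to 24 kb away. The lists are small, and no test of their shares was made.

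**Figure D4:**
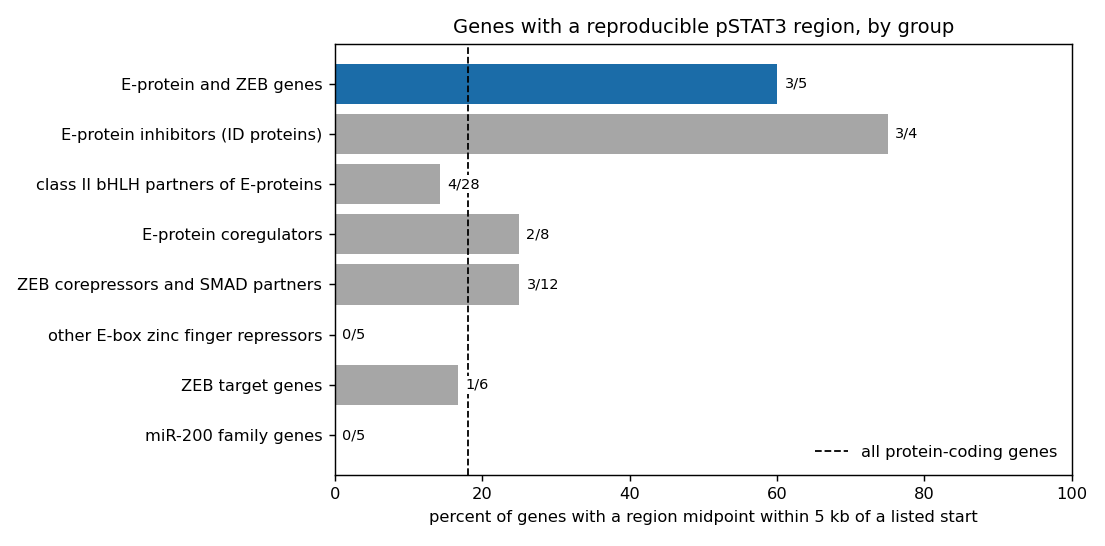
Percent of genes with a reproducible region midpoint within 5 kb of a listed start, for the E-protein and ZEB genes (blue) and each list of related genes (grey), with counts beside the bars. The dashed line is the 18.1% of all protein-coding genes. The E-protein and ZEB genes (3 of 5), the ID genes (3 of 4) and the lists of coregulators (2 of 8) and corepressors (3 of 12) reach past it, and 2 lists are at 0.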

How the data were processed

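Per the submitters' processing notes, CASAVA 1.8, Bowtie2 and MACS2 were used on GRCm38.p3; options are not given in the sources used here. Each ChIP library has its own peak list from the authors, and 1 region table covers both. Pileup signal and fold enrichment are per the file headers of the deposited lists. In the fold, pileup and background are each raised by 1. The authors' peak caller gave a -log10 p and a -log10 q per peak in the deposited lists. Their headers are damaged and they were identified from place and values: the -log10 p, rebuilt from pileup and fold by a Poisson tail, matched within 1% in 99.6% of replicate 1 peaks and nearly all replicate 2 peaks. In the deposited table the p-value column holds the IDR. Its columns headed pileup and fold equal the mean -log10 p of both libraries within 0.001 in 12377 of 12925 regions, and were read as that mean and not as fold enrichments. The summit column gives the region midpoint. The table's start is 0-based, and 1 was added.

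Starts are those of the Ensembl transcripts that the region table gives (nearest, or up to 25 kb from a region), or come from the RefSeq tables (GRCm38.p6). Overlap was at least 1 bp. Peaks off chromosomes 1 to 19, X and Y were left out. The 5 genes and the 7 lists of related genes were chosen with earlier results of these data known, as was the naming of up to 3 genes a list by strength, so all counts are descriptions and no test was run. Values of some genes in these lists are not reported here. Matching was tested on simulated data. Scripts ran in Python 3.11.15 with matplotlib 3.10.9, scipy 1.17.1, pandas 2.3.3 and numpy 2.4.6.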

Additional observations from a re-analysis of the deposited data

How the results depend on the processing

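The count of 3 of the 5 genes bound within 5 kb of a start was 2 to 4 under windows of 1 and 25 kb, an IDR of 0.01, a -log10 q of at least 10 in both libraries, an overlap of at least 50% and position by the replicate 1 summit. With a single library it was 5 and 5, since single peaks replace reproducible regions. In the same way the 19 regions within 25 kb of a member transcript became 44 to 67 peaks, and the 13 related genes became 19 to 24. With a 25 kb window the related genes numbered 28. The share of all protein-coding genes, 18.1%, was 12.8% within 1 kb, 34.4% within 25 kb of a start and 14.8% at an IDR of 0.01.

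Ranked by the lower pileup, the strongest region of each gene stood at 94.3% for Tcf4, 84.2% for Tcf12, 91% for Zeb2 and 68.9% for Zeb1. Ranked by the mean -log10 p it stood at 94.7% for Tcf4, 90.6% for Tcf12, 91.8% for Zeb2 and 73.8% for Zeb1. In single libraries these percentiles were 95.8% to 96.5% for Tcf4, 88.5% to 94.2% for Tcf12, 93.4% to 94.1% for Zeb2 and 76.1% to 77.7% for Zeb1. Single-library folds of those regions were 26.3 to 30.6, 17 to 28.1, 22.3 to 27.3 and 11.8 to 16.8 in the same order of genes. The causes of these shifts were not tested.

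The planned motif count around summits was not run, since no genome sequence was used here, and motifs were counted in promoter windows. Exon and intron classes are not given, since no exon annotation was used here. The sources used here give no read depths. No paired analysis was possible because no comparison between groups was made.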
